A study of Mus musculus with 23 samples.

Results

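DNA methylation of the mouse extra-embryonic ectoderm (ExE) was compared between embryonic day E6.5 and E7.5 in 8 of the 23 bisulphite libraries of the series. They comprised 2 libraries of each cross at each stage. The crosses were B6/CAST, from C57BL6/Babr mothers and CAST/Ei fathers, and the reciprocal CAST/B6, and all 8 libraries were wild-type hybrids with no treatment. Each E6.5 library was made from a small part of the chromatin of several pooled ExE, prepared alongside ChIP-seq and sequenced at low coverage, whereas each E7.5 library came from the ExE of a single embryo lysed directly. Stage was therefore confounded with pooling, lysis, depth, rounds of conversion and PCR, and read length, which cannot be told apart from it. The 10 wild-type epiblast libraries of the same crosses, 6 at E6.5 and 4 at E7.5, carry the same confounding and served as the comparison tissue.

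The measurement was the percentage of methylated CpG calls in windows of nominally 100 CpGs. The members were E7.5 windows on chromosomes 1 to 19, each paired with the E6.5 window that held its midpoint, since the E6.5 and E7.5 tables were cut on different grids. Of 384346 such E7.5 windows 380582 could be paired, and 334008 pairs, resting on 274734 distinct E6.5 windows, had a value in all 8 libraries and were tested. The median window was 5133 bp at E7.5 and 6342 bp at E6.5, and only 7 pairs had identical coordinates. In 52775 pairs, called matched windows here, both windows shared at least 80% of their bases and of their CpGs. The values came as percentages alone, so it is unknown how many reads each rests on, and they have no counting interval. E6.5 windows had a value in all 4 ExE libraries in 88.0% of cases, and in 73.2% of those with at least 60 CpGs per kb, against nearly all windows at E7.5.

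The ExE is the trophoblast tissue that borders the epiblast after implantation. It holds the trophoblast stem cells and gives rise to parts of the placenta. The genome is largely demethylated before implantation and then methylated again by the de novo methyltransferases Dnmt3a and Dnmt3b, and ExE is known to reach a lower level than the epiblast, which forms the embryo proper. CpG islands, the CpG-dense stretches at many promoters, usually escape this wave. Imprinted germline differentially methylated regions (gDMRs) keep the methylation they received from the egg or the sperm on that parental allele only. At a small group of genes, imprinting in ExE is instead non-canonical: it begins with a maternal histone mark and involves long terminal repeats (LTRs) of ERVK endogenous retroviruses. In bulk tissue, a change within cells and a change in the mix of cells cannot be told apart.

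The sequences that follow belong to the elements on which the results below turn, with every CpG in capitals. They are the promoters of 3 maternally methylated imprinted genes, 1 of the 7 imprinted LTRs that were higher at E7.5 in B6/CAST and lower in CAST/B6 (the one with the largest fall in CAST/B6), and the promoter used to check the tissue label. The promoters of Peg3 (chr7:6730370-6730669, minus strand, 13 CpGs), Kcnq1ot1 (chr7:143296498-143296797, minus strand, 9 CpGs), Mest (chr6:30737800-30738099, plus strand, 17 CpGs) and Elf5 (chr2:103411848-103412147, plus strand, 3 CpGs) are from the RefSeq GRCm38.p6 table. The first 300 bases of the RLTR11B element upstream of Smoc1 (chr12:81019166-81019465, plus strand, 5 CpGs) were read from the GRCm38.p6 genome.
Peg3 promoter: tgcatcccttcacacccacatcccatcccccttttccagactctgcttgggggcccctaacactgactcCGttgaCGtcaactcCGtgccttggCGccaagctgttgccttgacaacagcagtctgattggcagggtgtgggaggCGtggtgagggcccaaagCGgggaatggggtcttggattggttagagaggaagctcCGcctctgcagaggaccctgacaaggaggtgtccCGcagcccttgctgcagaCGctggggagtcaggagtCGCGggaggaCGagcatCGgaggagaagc
Kcnq1ot1 promoter: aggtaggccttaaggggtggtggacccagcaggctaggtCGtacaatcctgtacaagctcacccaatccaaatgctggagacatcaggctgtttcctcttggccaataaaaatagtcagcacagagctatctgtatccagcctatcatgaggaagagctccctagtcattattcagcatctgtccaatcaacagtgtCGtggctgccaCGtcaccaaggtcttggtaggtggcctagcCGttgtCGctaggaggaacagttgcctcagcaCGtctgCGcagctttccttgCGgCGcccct
Mest promoter: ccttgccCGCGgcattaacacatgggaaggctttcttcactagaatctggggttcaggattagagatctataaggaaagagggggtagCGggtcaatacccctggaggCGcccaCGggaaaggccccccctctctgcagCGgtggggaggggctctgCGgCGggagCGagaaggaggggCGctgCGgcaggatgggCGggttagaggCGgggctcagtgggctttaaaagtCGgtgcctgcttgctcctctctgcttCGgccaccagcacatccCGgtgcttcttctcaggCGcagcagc
RLTR11B upstream of Smoc1: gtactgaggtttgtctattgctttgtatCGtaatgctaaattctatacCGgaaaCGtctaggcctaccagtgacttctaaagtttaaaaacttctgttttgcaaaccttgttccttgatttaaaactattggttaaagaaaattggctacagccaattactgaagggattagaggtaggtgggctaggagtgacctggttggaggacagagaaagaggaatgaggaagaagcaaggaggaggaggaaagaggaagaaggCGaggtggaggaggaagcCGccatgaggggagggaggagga
Elf5 promoter: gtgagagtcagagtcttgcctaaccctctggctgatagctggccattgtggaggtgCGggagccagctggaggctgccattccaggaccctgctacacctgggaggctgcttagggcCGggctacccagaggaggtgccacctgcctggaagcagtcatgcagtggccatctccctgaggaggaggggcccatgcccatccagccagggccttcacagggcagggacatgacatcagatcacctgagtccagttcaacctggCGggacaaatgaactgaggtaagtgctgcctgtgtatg

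The tissue label was checked at Elf5, which encodes a transcription factor of trophoblast stem cells and is known to be methylated in the embryonic lineage. The Elf5 promoter shown above is one small part of a window of E7.5 coordinates chr2:103411630-103416440. That window held 51.5 to 63.6% methylation in the 4 E6.5 and 60.8 to 69.1% in the 4 E7.5 ExE libraries, below every epiblast library (77.0 to 99.1% at E6.5, n = 6, and 80.4 to 92.6% at E7.5, n = 4). The window at Pou5f1, a pluripotency factor known to be active in the epiblast, held 37.2 to 42.1% in E7.5 ExE and 11.4 to 25% in E7.5 epiblast. At E6.5 the tissues overlapped at Pou5f1, with 21.6 to 42.7% in ExE and 33.3 to 55.6% in epiblast. At the window of Nanog, another pluripotency factor, ExE held 58.0 to 81.3% and then 51.6 to 62.6%, while epiblast held 16.7 to 69.4% and then 37.4 to 45.5%. Eomes, a regulator of trophoblast stem cells, was nearly unmethylated in ExE at both stages, at no more than 3.26% and 1.57%, and epiblast was as low at E7.5, at no more than 1.10%. Ascl2, needed for the placental spongiotrophoblast, held 23.2 to 46.2% and then 11.9 to 21.5% in ExE, and 17.7 to 70% and then 4.45 to 7.79% in epiblast. At E7.5 Ascl2 was thus lower in every epiblast library than in every ExE library, and Eomes did not tell the tissues apart. The windows at Cdx2 and Hand1 lacked a value in at least 1 of the 8 libraries.

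Mean methylation of ExE moved in opposite directions in the crosses. In B6/CAST, both E6.5 libraries had a mean of 51.9% over the 334008 pairs, and the E7.5 libraries had 59.6% and 57%. In CAST/B6, the E6.5 libraries had 65.6% and 63.1% and the E7.5 libraries 56.8% and 59.9%. Every E7.5 library of B6/CAST thus lay above its E6.5 libraries, by 6.34 percentage points on average, and every E7.5 library of CAST/B6 lay below its own, by 6.0 points. Over both crosses the level was 58.1% ± 7.24 at E6.5 and 58.3% ± 1.65 at E7.5 (SD, n = 4 each), a difference of 0.174 points that did not exceed the spread (two-sided exact permutation test over 70 assignments, p = 1). The matched windows gave 52.6% and 52.7% in the B6/CAST E6.5 libraries and 64.8% and 62.5% in the CAST/B6 ones, and changes of 5.82 and -4.88 points. Epiblast showed a gap between the crosses in the same direction at E6.5, with means of 71.3% and then 74.1% in B6/CAST and 80.3% and then 75.9% in CAST/B6 (3 libraries at E6.5 and 2 at E7.5 in each cross). Both B6/CAST E6.5 ExE columns, and neither of the CAST/B6 ones, are marked as imported again, which cannot be told apart from the cross at E6.5. Nothing in the labels says whether the 2 libraries of a cross came from separate litters, so p-values here measure only the spread between these samples, which may be technical.

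**Figure D1:**
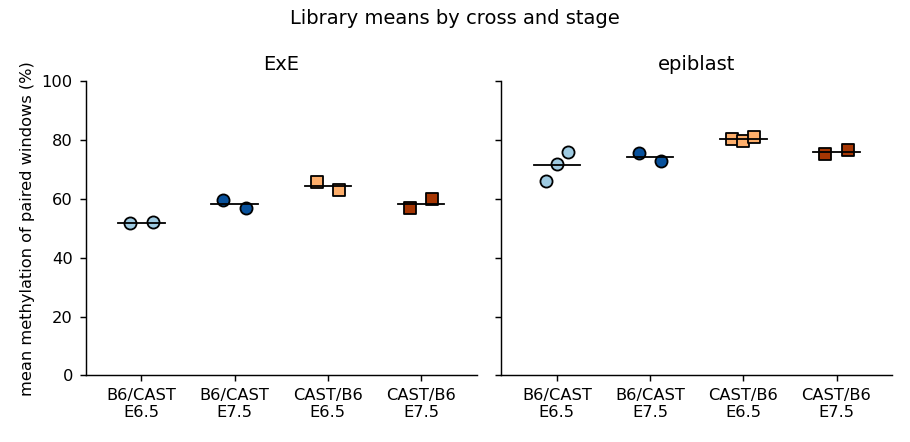
Mean methylation (%) of each library over paired windows, for ExE (left, 334008 pairs) and epiblast (right, 296863 pairs), by cross and stage. Points are libraries and lines are group means, and in ExE both E6.5 libraries of B6/CAST sit at 51.9%, below its E7.5 libraries at 57 and 59.6%, while the CAST/B6 libraries move down from 63.1 and 65.6%.

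The shift ran through every autosome. To compare the same sequence at both stages, each CpG was given the value of its window in each table, and CpGs were averaged over 23263 bins of 50 kb. In B6/CAST the mean change per chromosome ran from 6.18 points on chromosome 11 to 9.20 points on chromosome 3. In CAST/B6 it ran from -5.73 points on chromosome 5 to -6.55 points on chromosome 16. The CAST/B6 level exceeded the B6/CAST level by 12.1 to 14.9 points per chromosome at E6.5, and by -0.75 to 0.254 points at E7.5. In 18671 bins (80.3%) methylation was higher at E7.5 in B6/CAST and lower in CAST/B6, in 3236 (13.9%) it was lower in both crosses, and in 1289 (5.54%) higher in both. Over these bins, Pearson's r between libraries was 0.924 to 0.957 among the E7.5 libraries, 0.768 to 0.813 between E6.5 libraries of different crosses and 0.804 to 0.934 between those of the same cross (2 pairs), a description over bins that share their sequence and CpG content.

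Within B6/CAST, 9551 of the 23263 bins (41.1% of bins tested) passed the test of stage, 9501 of them higher at E7.5 and 50 lower (limma, Benjamini-Hochberg adjusted p under 0.05). Within CAST/B6, 395 bins (1.7%) passed, all of them lower. The change differed between the crosses in 12282 bins (52.8%, stage by cross interaction in limma). These counts depended on single libraries, where a cross left with 1 sample at a stage was assumed to vary like the other groups. The B6/CAST count was 3834 and 4921 without E6.5 replicate 1 or 2 of B6/CAST, 0 without its E7.5 replicate 1 and 5955 without its E7.5 replicate 2. The CAST/B6 count was 0 without either B6/CAST E6.5 library or any single E7.5 library, and 712 and 6031 without E6.5 replicate 1 or 2 of CAST/B6. The interaction count was 5003 without B6/CAST E7.5 replicate 1 and 5697 without CAST/B6 E7.5 replicate 1. With cross as covariate, which tests a change that the crosses share, 0 bins passed on percent as deposited (955 at an unadjusted p under 0.05).

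The opposed changes were larger in CpG-poor sequence. In the 3012 bins with under 250 CpGs, the B6/CAST E6.5 libraries held 37.2% and 36.9% and the E7.5 libraries 53.5% and 49%. In the same bins the CAST/B6 libraries held 57.7% and 54.5% at E6.5 and 45.6% and 50.4% at E7.5. That is a change of 14.2 points in B6/CAST, with 73.0% of the bins past the test, and of -8.12 points in CAST/B6, with 4.68% past it. In the 3796 bins with 650 or more CpGs the B6/CAST change was 1.84 points, from 54.8% to 56.6%, with 7.17% of bins past the test, and the CAST/B6 change was -4.95 points, from 62.6% to 57.6%. The spread of levels over bins within a library was 13.5 and 13.3 points (SD) in B6/CAST at E6.5 and 9.29 and 9.81 at E7.5, against 11.1 and 11.2 and then 11.2 and 10.5 in CAST/B6.

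**Figure D2:**
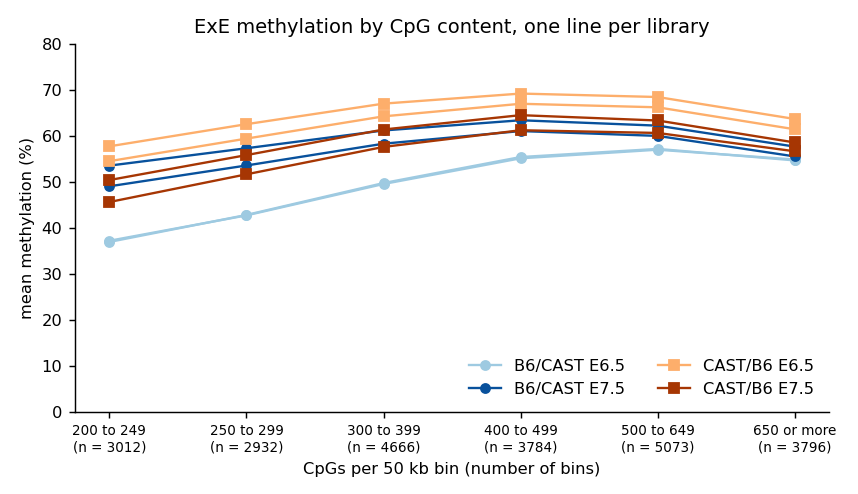
Mean methylation (%) of ExE over 50 kb bins grouped by their number of CpGs, 1 line per library. The B6/CAST E6.5 lines lie lowest in every class and are 14.2 points below the E7.5 mean of that cross in the CpG-poorest bins and 1.84 points below it in the CpG-richest ones.

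Of 6 gene families, 5 were higher at E7.5 in B6/CAST and lower in CAST/B6, and the histone genes were lower in both. The olfactory receptor genes, which encode odorant receptors used in the nose, were covered by 633 windows in 565 genes. Their mean was 38.4% and 38.2% in the B6/CAST E6.5 libraries and 53.1% and 49.5% at E7.5, and in CAST/B6 it was 59.3% and 54.5% and then 47.4% and 52.0%. Windows in the 190 vomeronasal receptor genes, which encode pheromone receptors, held 37.2% and 36.6% and then 51.5% and 47.0% in B6/CAST, and 57.2% and 53.1% and then 45.6% and 48.9% in CAST/B6. In both families each cross moved as a whole, up in B6/CAST by 12.9 and 12.3 points and down in CAST/B6 by 7.19 and 7.92 points. The 58 keratin genes, which encode epithelial filaments, changed by 7.28 and -7.43 points. The 49 clustered protocadherin genes, which encode neuronal adhesion proteins, changed by 5.56 and -3.39 points, and the 367 KRAB zinc finger genes, many of which encode repressors of retroelements, by 1.61 and -5.44 points. The 20 windows in 13 histone genes, which encode the proteins that package DNA, held 28.3%, 26.6%, 37.4% and 32% and then 26.0%, 23.4%, 26.2% and 25.7%. Every E7.5 library was below every E6.5 library, with changes of -2.79 points in B6/CAST and -8.73 in CAST/B6, but in their 6 matched windows the changes were 3.84 and -3.59 points and the stages overlapped. Relative to the library mean, 4 of these 20 windows, 17 of 633 windows in olfactory receptor genes and 211 of 2056 windows in KRAB zinc finger genes passed the test of stage described next, against 5.07% of all windows. Of the 71 matched windows in olfactory receptor genes and the 336 in KRAB genes, 0 passed.

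To look at windows against the overall shift, the mean of each library was subtracted and stage was tested with cross as covariate in limma. A total of 16923 of 334008 pairs (5.07%) passed, 6536 higher at E7.5 (1.96%) and 10387 lower (3.11%). On percent as deposited, 10575 passed (3.17%), 3520 higher and 7055 lower, and between 4634 and 6017 passed without any 1 E7.5 library. Most of these calls stood where the paired windows covered different sequence. Of the 4634 pairs that shared under 20% of their bases or CpGs 49.1% passed, of the 128454 that shared 60 to 80% 2.28% passed, and of the 7265 that shared at least 90% 0.399% passed. Fitted on their own, 0 of the 52775 matched windows passed (4923 at an unadjusted p under 0.05, and 4184 on percent as deposited), and their smallest adjusted p was 0.137. In data simulated over all pairs, the test recovered 0 of 200 windows changed by 30 points. The count of 0 in matched windows therefore does not show that none of them changed. Leaving out CAST/B6 E6.5 replicate 1 raised the count over all pairs to 25424, and leaving out any 1 E7.5 library lowered it to between 10035 and 10784. The change relative to the library mean differed between the crosses in 0 windows (38963 at an unadjusted p under 0.05, and 10041 adjusted without CAST/B6 E6.5 replicate 2). This count of 0 does not show that the crosses changed alike, since the same limma test of stage by cross gave 2803 of 9713 gene bodies (28.9%), 2377 of 10286 bins of 100 kb (23.1%), 192 of 6558 gene bodies averaged over the same CpGs (2.93%) and 174 of 3509 gene bodies without their outer 10 kb (4.96%), with 0 of the 50 kb bins (7527 at an unadjusted p under 0.05).

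**Figure D3:**
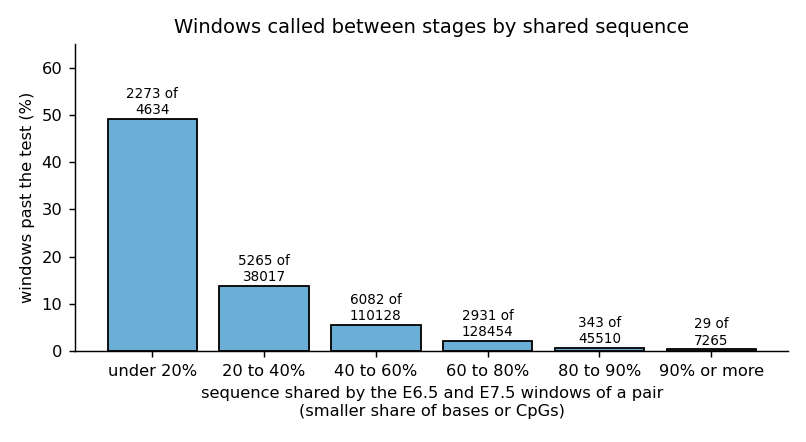
Share of paired windows (%) past the test of stage (limma, relative to the library mean), by the sequence that the E6.5 and E7.5 windows of a pair share. The numbers over the bars are windows called and tested, and the share falls from 49.1% where under 20% is shared to 0.399% where at least 90% is.

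The windows with the largest differences shared little sequence with their partners. The window at Arrdc2, an arrestin-domain gene, at chr8:70837918-70839241 held 86.6%, 79.5%, 96.8% and 88.2% in the E6.5 libraries and 6.83%, 6.79%, 11.6% and 7.02% in the E7.5 ones. It was 79.9 points lower at E7.5 (SE 4.44, limma adjusted p = 1.48e-06), but its pair shared 10.9% of the E7.5 window, and the epiblast values at the same pair were 89.5% and 8.35%. The other windows named as lower were at Cbfb, which encodes a partner of the Runx factors, and at Hexdc, Washc5, Nck1, Rnpc3, 1500011B03Rik, Dync1i2, Wars2 and Mcph1, with differences of -79.1 to -75.7 points and at most 24.5% of the E7.5 window shared. The window named with the largest increase, at Trp53rka (chr2:165490615-165492768), held 14.6%, 6.80%, 7.14% and 16.7% at E6.5 and 79.3%, 76.7%, 72.9% and 70.2% at E7.5. It was 63.3 points higher (SE 4.59, limma adjusted p = 2.79e-06) with 37.2% of the E7.5 window shared. The window at Yy1, which encodes a zinc finger factor that can activate or repress, was 60.7 points higher (SE 4.84) and shared 43.8%. Hps3, Tmx2, Rab23, Mvd, Mrps16, Zfp142, Zfp986 and Zfp866 completed the windows named as higher. At every one of these 20 pairs the epiblast moved in the same direction.

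Among the matched windows, 234 were called higher and 138 lower in the fit over all pairs, and those named below by the same rule had adjusted p of 0.137 to 0.245 when the matched windows were fitted alone. The decreases included 2 imprinted regions. The window chr7:6730168-6731248 lies at the shared start of Usp29 and Peg3, which encodes a zinc finger protein expressed from the paternal allele, and holds the Peg3 promoter shown above. Its E6.5 values were 51.9% and 58.6% in B6/CAST and 73.0% and 86.6% in CAST/B6, and its E7.5 values were 24.4% and 38.6%, and 42.2% and 35.2%. All 4 E7.5 libraries lay below all 4 E6.5 ones, with a change of -32.6 points (SE 5.38, limma adjusted p = 0.00168 over all pairs and 0.137 over matched windows), and epiblast held 73.7% and 44.5% at the same pair. The window chr7:143295640-143296400 lies within Kcnq1 at the gDMR of Kcnq1ot1, a long non-coding RNA that silences neighbouring genes on the paternal chromosome, just beside the promoter shown above. It held 54.2% and 55.7% in B6/CAST and 82.2% and 100% in CAST/B6 at E6.5, and 44.2%, 32.3%, 48.0% and 41.2% at E7.5. The groups again did not overlap, with a change of -31.8 points (SE 5.67, limma adjusted p = 0.00307 and 0.164 over matched windows), and the epiblast values were 72.7% and 41.7%.

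Other matched windows lower at E7.5 lay at genes with varied roles. A window within Cadps, a gene of vesicle release, held 47.8%, 46.3%, 65.6% and 68.3% at E6.5 and 33.0%, 25.3%, 23.4% and 16.6% at E7.5 (-32.6 points, SE 4.90, limma adjusted p = 0.00078). A window at Tbx3, which encodes a T-box regulator (chr5:119673483-119675603), held 62.0%, 44.0%, 66.7% and 73.3% and then 45.8%, 35.7%, 21.0% and 38.3% (-26.5 points, SE 5.69, limma adjusted p = 0.012). At Tbx3 the highest E7.5 library, at 45.8%, lay above the lowest E6.5 library, at 44.0%, and the groups were apart only after the library mean was subtracted. Epiblast held 15.5% and 7.77% at that pair. Ska1, Rgl2, Trappc5, Sec63, Foxk1 and Ttc29 were also named as lower, with changes between -33.6 and -27.3 points. Among the increases, a window at Supt20 (chr3:54693158-54699984), which encodes a subunit of a histone acetyltransferase complex, held 40.3%, 40.6%, 21.7% and 23.5% at E6.5 and 63.4%, 68.6%, 72.5% and 69.7% at E7.5. A window at Dhx36, which encodes a helicase that unwinds G-quadruplexes, held 44.1%, 20.8%, 47.6% and 25% and then 72.4%, 69.5%, 66.0% and 73.6%. At both genes every E7.5 library was above every E6.5 library, with changes of 36.8 points (SE 6.33) and 35.8 points (SE 5.86). Zfp729a, Dctn4, Yipf4, Zbtb41, Ikbkb, A430073D23Rik and Endod1 were also named as higher. Of the matched windows called and also measured in epiblast, 164 of 196 higher and 105 of 123 lower ones had the same sign there, as did 27673 of all 47628 matched windows measured in both tissues.

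The test of stage was also run on bins. In simulated bins of 50 kb it recovered 0 of 200 changed by 10 points and 174 of 200 changed by 20 points. A low count of bins therefore does not show that few changed by 10 points. Relative to the library mean, 1 of the 23263 bins (0.0043%) passed, with 3072 at an unadjusted p under 0.05. It was chr11:3150001-3200000, which holds part of Sfi1, a gene for a centrin-binding protein of the centrosome, and of Drg1. It held 41.1%, 43.5%, 57.2% and 52.8% at E6.5 and 33.0%, 31.1%, 31.2% and 34.5% at E7.5. Every E7.5 library was below every E6.5 library, with a change of -17.1 points (SE 1.97, limma adjusted p = 0.0315), and epiblast held 65% and 51.0%. No bin passed without either B6/CAST E6.5 library or without any 1 E7.5 library, 5 and 2 passed without CAST/B6 E6.5 replicate 1 or 2, and 365 passed, 117 higher and 248 lower, when the interaction with cross was kept in the model (1.57%). In bins of 100 kb the count was 1 (0.00972%) with cross as covariate and 1482 of 10286 (14.4%), 526 higher and 956 lower, with the interaction in the model. The bin at Sfi1 holds sequence present elsewhere in the genome. Of its 31-base stretches, 49.6% occur more than once in GRCm38, against 2.2% to 44.4% (median 10.3%) in 47 bins taken at even spacing, and how this bears on the change was not tested. Sfi1 also held the longest runs of consecutive windows called lower, of 15 and 9 E7.5 windows. These runs rest on only 6 and 4 distinct E6.5 windows, whose values were used repeatedly, and their median shared sequence was 27.5% and 27.3%.

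Gene bodies were tested in the same way, relative to the library mean. With windows assigned by midpoint, 632 of 9713 gene bodies (6.51%) passed, 35 higher and 597 lower. Without CAST/B6 E6.5 replicate 1 there were 1433. The count was 203 and 190 without B6/CAST E6.5 replicate 1 or 2, 199 and 142 without its E7.5 replicate 1 or 2, and 264 without CAST/B6 E7.5 replicate 2. Averaged over the same CpGs at both stages, 173 of 6558 (2.64%) passed relative to the library mean, 34 higher and 139 lower, and 38 of the 362 genes of the first count that were measured this way were among them. On percent as deposited 23 passed (0.351%), all lower, and relative to the library mean with the interaction of stage and cross in the model 605 passed (9.23%), 247 higher and 358 lower. The named genes of this second count included Fetub, which encodes a liver-secreted fetuin, at 62.7%, 62.1%, 63.7% and 62.9% and then 76.8%, 71.3%, 71.0% and 75% (12.1 points relative to the library mean, SE 1.59, limma adjusted p = 0.0125). Trim5, Tdh, C1qtnf3, Bivm, Htr1f, Sirpb1b, Atp6v0d2, Trim38 and 4930503L19Rik were the others higher relative to the library mean, by 9.60 to 15.1 points. Those lower were Sfi1, Entpd6, the transcription elongation genes Supt5 and Supt6, Vipas39, Nhlrc2, Xndc1, Narf, Brpf1 and Lsg1, by 10.7 to 17.4 points in size on the same scale. In Sfi1, Trim5 and Sirpb1b, 61.2%, 67% and 58.9% of the 31-base stretches occur more than once in the genome, and in the other named genes of this count 1.24% to 32.5%.

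When the outer 10 kb at each end of a gene were left out, so that windows spanning a promoter entered less, 4 of 3509 genes (0.114%) passed relative to the library mean, with 629 at an unadjusted p under 0.05. On percent as deposited 0 passed (453 at an unadjusted p under 0.05), and relative to the library mean with the interaction in the model 104 passed (2.96%), 68 higher and 36 lower. The changes given here for the 4 genes are relative to the library mean. Sfi1 held 44.5%, 47.7%, 60.4% and 57.9% at E6.5 and 32.6%, 32.9%, 32.5% and 36.5% at E7.5 (-17.9 points, SE 1.57, limma adjusted p = 0.000751). Tnpo1, which encodes a nuclear import receptor, held 78.1%, 72.3%, 81.3% and 79.6% and then 67.2%, 65.2%, 64.7% and 67.1% (-10.6 points, SE 1.61, limma adjusted p = 0.0359). In both genes all E7.5 libraries were below all E6.5 libraries. Elovl2, which encodes an enzyme that elongates long-chain fatty acids, held 57.5%, 56.2%, 67.2% and 60.2% and then 71.5%, 68.9%, 71.2% and 71.6% (11.6 points, SE 1.61, limma adjusted p = 0.0235). Trim14, which encodes an adaptor of innate immune signalling, held 34.1%, 38.1%, 45.9% and 44.1% and then 51.9%, 50.5%, 51.6% and 49.9% (11.6 points, SE 1.62, limma adjusted p = 0.0235). On percent as deposited the differences were -19 for Sfi1, -11.8 for Tnpo1, 10.5 for Elovl2 and 10.4 for Trim14. In each of the 4 the stages did not overlap. The share of 31-base stretches that occur more than once in the genome was 68.1% in Sfi1, 36.6% in Trim14, 6.75% in Tnpo1 and 1.73% in Elovl2. The change of gene bodies relative to the library mean was also compared between ExE and epiblast. With windows assigned by midpoint it differed in 0 of 9713 genes (372 at an unadjusted p under 0.05). Without the outer 10 kb it differed in 0 of 1958 genes (100 at an unadjusted p under 0.05).

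CpG-dense promoter windows, under 2 kb long and holding an annotated start, were lower at E7.5 in the paired data. Over 12249 such pairs the E6.5 libraries had means of 20.2% and 19.7% in B6/CAST and 23.9% and 22.4% in CAST/B6, and the E7.5 libraries had 12.8% and 12.4%, and 12.9% and 13.3%. All E7.5 libraries lay below all E6.5 libraries, by 8.68 points on average (p = 0.0286 when stage labels were permuted exactly and read as two-sided, the lowest value that 70 assignments can give, and 0.0762 adjusted over 16 classes of windows). Within crosses the smallest p the design allows is 0.0556. Of these windows 2503 (20.4%) passed the test relative to the library mean, 63 higher and 2440 lower, against 5.07% of all windows. The difference was smaller in windows of more similar sequence. Among the 7748 windows that were under 2 kb at both stages the change was -1.65 points, from 10.5% to 8.84%, and every E7.5 library (8.45 to 9.19%) lay below every E6.5 library (9.85 to 11.4%; two-sided exact permutation test, p = 0.0286, and 0.0762 adjusted over the 16 classes). Among 2309 matched windows it was -0.379 points, with 12.2%, 12.1%, 13.9% and 13.2% at E6.5 and 12.4%, 12%, 12.6% and 12.9% at E7.5, so that the stages overlapped (two-sided exact permutation test, p = 0.486).

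**Figure D4:**
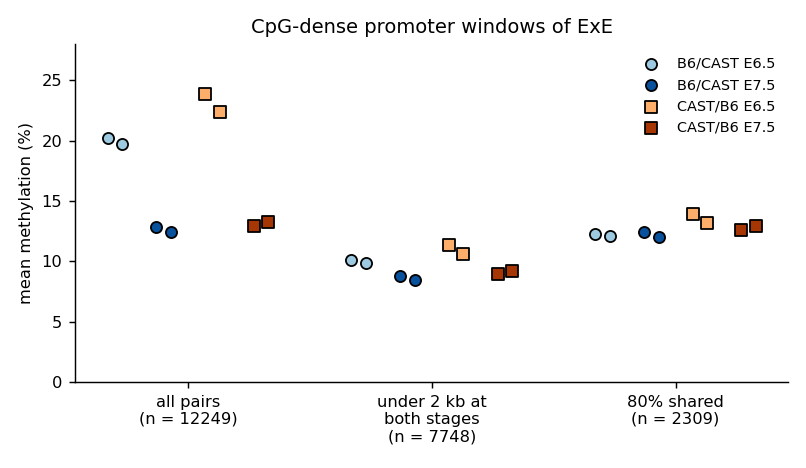
Mean methylation (%) of CpG-dense promoter windows in each ExE library, for all pairs, for pairs under 2 kb at both stages and for pairs that share at least 80% of bases and CpGs. Points are libraries, and the difference of -8.68 points between stages over all pairs is -0.379 points (E7.5 minus E6.5) where the windows match.

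Promoter windows of named gene groups were read against the 16736 protein-coding genes measured, of which 283 (1.69%) were called higher and 2831 (16.9%) lower. Among the 2855 of these with matched windows, 0 passed a fit of the matched windows alone. Regulators of trophoblast stem cells had 16 of 20 promoters measured, with 0 called higher and 1 lower. That was Smarca4, which encodes a chromatin remodelling ATPase, whose pair shared 19% of the sequence. In the matched windows of Klf5, Tfap2c, Gata3 and Satb1 methylation was low, at no more than 12.5% in any library. The window of Satb1, which encodes a chromatin organiser, held 0%, 0.585%, 0% and 0% at E6.5 and 3.83%, 4.42%, 8.60% and 5.83% at E7.5. Its groups did not overlap, but the change of 5.35 points relative to the library mean did not pass (limma adjusted p = 0.764 over matched windows). Of 19 promoters of trophoblast differentiation genes, 1 was called, at Epcam, an epithelial adhesion gene (76.8%, 76.5%, 80.5% and 90.1%, then 30.8%, 31.1%, 31.8% and 36.1%), with 37.9% of the sequence shared. None of the 42 measured promoters of placental hormone and protease genes, such as prolactin family genes, was called, and their mean moved as the library means did, from 40.5% and 38.2% to 52.7% and 49% in B6/CAST and from 60.6% and 57.6% to 44.4% and 51.5% in CAST/B6.

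Among 22 genes of ExE and epiblast signalling, 0 were called higher and 4 lower: the convertases Furin and Pcsk6 and the Wnt antagonists Dkk1 and Sfrp1. These 4 pairs shared between 22.7% and 51.9% of their sequence. Developmental regulators had 0 higher and 3 lower of 109 (Irx3, Olig1 and Tlx1), and the median change of their 31 matched promoters was -0.42 points. The 34 Hox genes and the 23 markers of endoderm, mesoderm and maternal decidua, the other tissues a dissection could hold, had none. Epiblast and pluripotency genes had 1 higher, the mesoderm factor Mesp1, and 2 lower, Utf1 and Pou3f1, of 18. Housekeeping genes had 6 lower of 32, among them Gapdh, which encodes a glycolytic enzyme, and Ywhaz, which encodes a 14-3-3 protein.

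Germline genes, which are silenced by promoter methylation in somatic tissue, had 1 higher and 5 lower of 50. The decreases were at Tex19.1, Tdrd9, Piwil2, Rnf17 and Smc1b, at pairs that shared 14.7 to 47.5% of their sequence. The increase was at Dazl, which encodes an RNA-binding protein of germ cells, in a pair that shared 82.6% (chr17:50293478-50294040). It held 32.7% and 53.5% in B6/CAST and 72.0% and 47.2% in CAST/B6 at E6.5, and 78.8%, 70.9%, 80.2% and 69.4% at E7.5. Only the CAST/B6 library at 72.0% reached the E7.5 range, and the change was 23.3 points relative to the library mean (SE 6.06, limma adjusted p = 0.0382 over all pairs and 0.259 over matched windows), with epiblast at 79.4% and 89.5%. Genes of the methylation machinery had 1 higher and 4 lower of 15. Those lower were the methyltransferase genes Dnmt3a, Setdb1 and Ehmt2 and the remodeller gene Hells, whose pairs shared 6.85 to 42.9%. Tet2, which encodes an enzyme that oxidises methylated cytosine, was higher in a pair that shared 88.7% (chr3:133545135-133552125). It held 30.8%, 29.8%, 24.0% and 31.2% at E6.5 and 52.3%, 49.3%, 46.4% and 44.0% at E7.5, without overlap (18.9 points, SE 4.50, limma adjusted p = 0.0232 over all pairs and 0.241 over matched windows).

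The 16 autosomal gDMRs, read over the peaks given by the study, were lower at E7.5 in most cases. Their mean was 56.6% and 54.4% in B6/CAST and 67.6% and 56.7% in CAST/B6 at E6.5, and 47.9%, 46.9%, 47.4% and 47.2% at E7.5. The stages did not overlap, with 58.8% ± 5.97 at E6.5 and 47.3% ± 0.432 at E7.5 (SD, n = 4 each), and the change was -8.09 points in B6/CAST and -14.9 points in CAST/B6. In 14 of the 16 peaks the mean was lower at E7.5 in both crosses, against 22.2% of all paired windows and 47.6% of those under 2 kb. The shares of windows given here and below are of single windows, whereas most peaks are means over several (72 windows in all). The 14 maternally methylated peaks changed by -11.9 points and the 2 paternally methylated ones, H19 and Meg3, by -8.33 points. Epiblast changed from 63.8% to 52.8% over the same peaks. In the E7.5 libraries, where reads could be assigned to a parent, the maternal gDMRs held 77.8% ± 2.87 on the maternal and 23.6% ± 1.04 on the paternal allele (SD, n = 4).

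The imprinted genes differed in how far the stages were apart. At Mest, a paternally expressed gene whose promoter is shown above, the peak (chr6:30732000-30741000) held 61.5% and 52.1% in B6/CAST and 71.0% and 59.9% in CAST/B6, and then 44.1%, 47.9%, 49.5% and 49.2%. At E7.5 its maternal allele held 84.1% ± 5.49 and its paternal allele 9.80% ± 2.56 (SD, n = 4). The Peg3 peak (chr7:6726000-6733500) held 62.9%, 60.6%, 45.8% and 75.6% and then 41.2%, 35.6%, 44.2% and 44.2%. Its alleles at E7.5 were at 80.3% ± 8.42 (maternal) and 2.79% ± 2.56 (paternal). The Kcnq1ot1 peak (chr7:143284500-143297500) held 60.2%, 56.4%, 84.1% and 75.8% and then 53.2%, 47.5%, 50.3% and 50.7%, with alleles at 82.8% ± 4.21 and 22.7% ± 3.24. In these 3 peaks, and in those of Commd1, Meg3 and Impact, every E7.5 library was below every E6.5 library, while in the other 10 peaks the stages overlapped. Over all paired windows 5.96% (2.25% of matched windows) had every E7.5 library below every E6.5 library. Averaged over the CpGs measured at both stages, only Kcnq1ot1, Commd1 and Impact of the 16 peaks had the stages apart, against 3.19% of 50 kb bins, while Mest, Peg3 and Meg3 overlapped and the change at Meg3 went from -9.30 to -3.34 points. At H19, a non-coding RNA gene with a paternally methylated control region, the values were 32.7%, 45.4%, 78.7% and 64.5% and then 47.4%, 39.6%, 55.8% and 49.1%, higher in B6/CAST and lower in CAST/B6. At Slc38a4, an amino acid transporter gene, they were 61.3%, 52.4%, 76.4% and 59.5% and then 59.7%, 55.9%, 67.7% and 58.6%.

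Averaged over the CpGs measured at both stages, all 16 gDMR peaks gave 55.9%, 54.5%, 69.1% and 58.8% at E6.5 and 50.2%, 49.5%, 50.4% and 50.1% at E7.5. The change was -9.53 points, the stages did not overlap, and 14 of the 16 peaks were lower in both crosses. Only 7 of the 16 peaks held a matched window, 13 windows in all, and over these the E6.5 libraries had 63.4%, 56.6%, 69.3% and 63.2% and the E7.5 libraries 55.4%, 51.1%, 55.1% and 57.8%. The change was -8.24 points and the stages overlapped, while over all their windows the same 7 peaks changed by -9.70 points. Of these 7 peaks, 2 were lower in both crosses, against 20% of matched windows and 26.1% of those under 2 kb. They were Peg3 (62.1% to 39.5%, 2 matched windows) and Kcnq1ot1 (73.0% to 41.4%, 1 matched window). At Peg3 the stages overlapped, since CAST/B6 E6.5 replicate 1 held 36.5% and the E7.5 libraries of that cross 42.67% and 44.65%. H13 held 66.8% and 66.9%, Nespas 42.9% and 45.7%, Meg3 63.9% and 66.2%, Sgce 67.7% and 64.8%, and Slc38a4 65.4% and 59.4%. With the shortest window of each peak in place of all of them the change was -11.3 points with 8 of 16 lower in both crosses, and the window at Commd1 held 5.50% and then 30.2%.

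**Figure D5:**
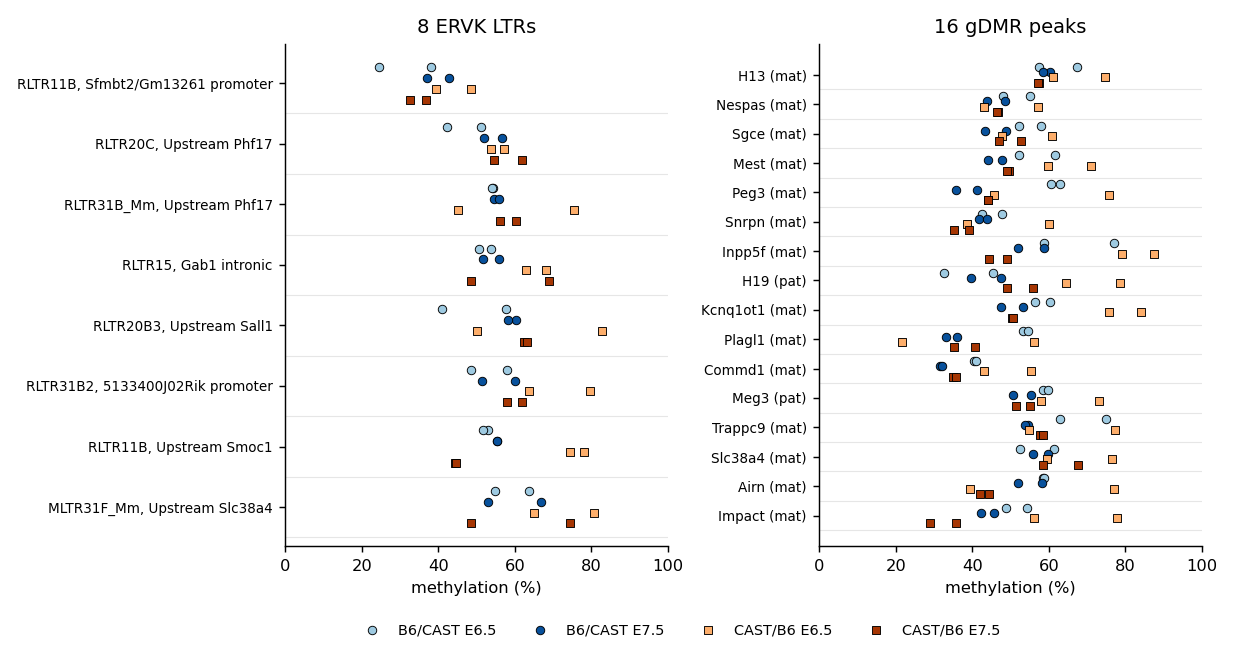
Methylation (%) of each ExE library at the 8 non-canonically imprinted ERVK LTRs (left) and the 16 gDMR peaks (right, with the methylated parental allele in brackets), with 2 points per cross and stage. The E7.5 points lie to the left of the E6.5 points in 6 gDMR peaks, against 5.96% of paired windows, and in none of the LTRs. Over the CpGs measured at both stages, 3 of the 6 (Kcnq1ot1, Commd1 and Impact) had the stages apart.

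The 8 ERVK LTRs linked to non-canonical imprinting, read with 500 bp on each side, moved as the library means did within each cross. All 8 were higher at E7.5 in B6/CAST, with changes of 0.703 to 10.0 points, and 7 of the 8 were lower in CAST/B6, with changes of -31.9 to -2.01 points. At the LTRs of Sfmbt2, Gab1, 5133400J02Rik and Slc38a4 the B6/CAST stages overlapped. With only the shortest window at each LTR, RLTR31B_Mm upstream of Phf17 (-0.0487 points) and RLTR31B2 at 5133400J02Rik (-0.235 points) were lower in B6/CAST. The mean of the 8 LTRs was 53.3% and 46.3% in B6/CAST and 69.7% and 58.4% in CAST/B6 at E6.5, and 56.0%, 52.3%, 54.4% and 55.2% at E7.5. That is 56.9% ± 9.86 and 54.5% ± 1.59 (SD, n = 4 each), a change of -2.42 points that was within the spread and became 1.84 points without CAST/B6 E6.5 replicate 1. In B6/CAST the change was 4.39 points and in CAST/B6 -9.23 points. Of the 8 LTRs, 1 was higher in both crosses, RLTR20C upstream of Phf17 (51.1%, 42.2%, 57.1% and 53.7%, then 56.7%, 51.9%, 54.6% and 61.8%), and none was lower in both, against 22.5% and 22.2% of paired windows. With the shortest window 1 was higher and 2 were lower in both crosses. Averaged over the CpGs measured at both stages, 1 was higher and 1 lower in both. At E7.5 the maternal allele held 66.3% ± 3.88 and the paternal allele 46.9% ± 0.278 (SD, n = 4). Epiblast held 76.0% and 80.2% at these LTRs, above ExE at both stages. The other active ERVK LTRs, 30 of 32 measured, held 49.8%, 44.3%, 65.2% and 56.5% and then 50.7%, 49.2%, 48.6% and 53.5%, with 6 higher and 8 lower in both crosses.

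Single LTRs varied widely. The RLTR11B element upstream of Smoc1 (chr12:81019166-81019645), whose sequence is shown above, held 52.9% and 51.7% in B6/CAST at E6.5 and 55.4% in each E7.5 library. In CAST/B6 it held 74.4% and 78.2% and then 44.4% and 44.5%, a change of -31.8 points against 3.17 points in B6/CAST. Another RLTR11B element serves as promoter at Sfmbt2, a polycomb-like gene expressed from the paternal allele in ExE (chr2:10364990-10365462). It held 38%, 24.5%, 39.4% and 48.6% and then 42.7%, 37.0%, 32.7% and 36.8%, and its E7.5 alleles were at 48.3% ± 6.72 (maternal) and 21.2% ± 13.6 (paternal). The RLTR15 element within Gab1, an adaptor of receptor signalling (chr8:80859027-80859376), held 50.7%, 53.8%, 68.1% and 63.0% and then 51.6%, 55.9%, 48.5% and 68.9%. Its alleles were at 79.4% ± 6.71 and 34.8% ± 6.56. At both elements the stages overlapped.

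Changes in ExE were rarely distinguishable from those in the epiblast. Over the 296863 pairs with a value in all 18 wild-type libraries, the change relative to the library mean differed between the tissues in 27 (0.0091%), 25 of them more positive in ExE, with 18774 at an unadjusted p under 0.05. On percent as deposited it differed in 0, with 14820 at an unadjusted p under 0.05. All 27 pairs shared under 60% of their sequence, and 0 of 47628 matched windows passed. In the 12464 bins of 50 kb measured in all 18 libraries, 2 passed relative to the library mean (0.016%), with 477 at an unadjusted p under 0.05, and 0 passed on percent as deposited, with 72. The bin chr5:63200001-63250000, 311.7 kb from Dthd1, held 30.8%, 36.8%, 50.1% and 46.9% in E6.5 ExE and 58.7%, 50.6%, 56.7% and 58.5% in E7.5 ExE, and 80.6% and 77.3% in epiblast. The bin chr15:63450001-63500000, 276 kb from Gsdmc, held 29.2%, 29.5%, 46.4% and 48.6% and then 53.1%, 49.6%, 50.1% and 56.0%, against 81.9% and 78.7% in epiblast. In both bins ExE was higher at E7.5 in each cross, and the change relative to the library mean exceeded that of epiblast by 17.5 points (SE 2.73) and 16.2 points (SE 2.64), each with a limma adjusted p of 0.0322. Neither passed the test of stage within ExE alone (limma adjusted p = 0.127), and 0 bins of 20 or 100 kb passed the test between tissues.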

How the data were processed

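Genomic DNA methylation was measured by post-bisulphite adaptor tagging (PBAT). Per the submitters' processing notes, reads were trimmed with Trim Galore 0.4.4 and aligned with Bismark 0.20.0 to GRCm38. The authors deposited percent methylation per window of nominally 100 CpGs, in separate tables for E6.5 and E7.5, with no coverage, so precision rests on the number of libraries.

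Each E7.5 window was paired with the E6.5 window holding its midpoint. Windows, gene bodies with at least 5 windows and 50 kb bins with at least 200 CpGs, 90% of them measured at both stages, were tested in limma 3.58.1 (R 4.3.3) with cross as covariate and Benjamini-Hochberg adjustment, as percent and as percent minus the library mean. Library means were compared by exact permutation in Python 3.11.15 with scipy 1.17.1. Scripts were tested on simulated data. With 60 points added to 200 windows, the test of stage recovered 180 and the test of stage by cross recovered 0. Matched windows, bins, per-CpG means, inner gene bodies and the count of repeated 31-base stretches (both strands of the C57BL/6J assembly, and every 500th tested bin for comparison) were chosen after seeing the data.

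Named windows were the 10 with the largest change in each direction past adjusted p of 0.05, with all 4 libraries of a stage above the other 4 relative to the library mean and both crosses in the same direction, counted once within 50 kb. The same rule was applied to matched windows and gene bodies. Up to 4 called members were named per gene list, and any beyond 4 were chosen after their values were seen. Runs of called windows, defining markers, LTRs and gDMRs were also named. A named matched window is not reported here. Members and gene lists were chosen with earlier results of these data known. Same-numbered libraries did not deviate together, so no pairing was used. No column was left unused because its sample could not be told (0 columns).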

Additional observations from a re-analysis of the deposited data

Results flagged for a closer look

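Several results were opposite in the crosses. The change of the mean over paired windows was 12.3 points lower in CAST/B6 than in B6/CAST (CAST/B6 minus B6/CAST, -12.3 points, from -6.0 and 6.34 points). It drew attention because every E7.5 library lay above its E6.5 libraries in one cross and below them in the other, and the difference itself was not tested. The same holds, untested, for the windows of olfactory receptor genes (-20.1 points), vomeronasal receptor genes (-20.3 points), keratin genes (-14.7 points), clustered protocadherin genes (-8.95 points) and KRAB zinc finger genes (-7.04 points), and for the RLTR11B element upstream of Smoc1 (-35.0 points, from -31.8 and 3.17 points). Tested as an interaction of stage and cross in limma, 12282 bins of 50 kb differed in their change between the crosses. Tested as an interaction of stage and tissue in limma, 2 bins of 50 kb and 27 paired windows differed in their change between ExE and epiblast.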

How the results depend on the processing

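The mean over all pairs kept no direction: it ranged from -1.91 to 2.66 points when single libraries were left out, with -1.91 and -1.89 without B6/CAST E6.5 replicate 1 or 2, -0.247 without B6/CAST E7.5 replicate 1 and -0.352 without CAST/B6 E7.5 replicate 2. The LTR mean ranged from -5.96 to 1.84 points, the CpG-dense promoter mean from -9.29 to -7.90 and the gDMR mean from -13.0 to -8.55. With permutations kept within crosses the promoter mean (-8.68 points) and the gDMR mean (-11.5 points) could reach no p below 0.0556. In matched windows these means were -0.379 and -8.24 points, where at least 80% of the compared sequence is shared and fewer windows are left. The replicate numbers did not pair the libraries (correlation of deviations -0.0086 in B6/CAST and 0.0147 in CAST/B6), and with them as a replicate block the promoter and gDMR means were again -8.68 and -11.5 points (smallest p 0.125), 5151 windows passed on percent as deposited and 278 gene bodies passed. Windows passing numbered 0 of the 7 pairs of identical coordinates on either scale, 1984 on percent and 5405 relative to the library mean with 1 value per E6.5 window, 5238 and 8377 with every second window, 0 and 0 in matched windows, and 4634 to 15127 and 10035 to 25424 when single libraries were left out. Windows differing between crosses numbered 0 to 10041 in the same way. Windows differing between tissues numbered 0 on percent as deposited, 2 with trend and robust fitting and 0 in matched windows. Gene bodies passing numbered 306 on percent as deposited, 84 with at least 10 windows, 173 per CpG, 4 without the outer 10 kb, and 142 to 1433 without single libraries. Bins relative to the library mean numbered 0 to 5 without single libraries and 365 with the interaction in the model. Bins within B6/CAST numbered 0 to 12096 without single libraries and 5093 of 10286 (49.5%) at 100 kb, those within CAST/B6 0 to 6031, 0 of 72716 at 20 kb and 2927 (28.5%) at 100 kb, and those differing between crosses 5003 to 14544, 20259 (27.9%) at 20 kb and 6743 (65.6%) at 100 kb. Bins differing between tissues numbered 0 on percent as deposited, at 20 kb and at 100 kb. Except where fewer windows or libraries entered, the cause of these differences was not tested. Of all alternatives run, those above included, 12 of 15 for the promoter mean, 11 of 14 for the gDMR mean and 12 of 13 for the LTR mean kept direction and side of the threshold.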

Other observations

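Among the 30 other active ERVK LTRs with values, 4 had the stages fully apart, all with every E7.5 library lower, against 5.96% of paired windows and 2.25% of matched windows. The windows that cover them differed between the tables, with the shortest at 5393 and 2388 bp for RLTR10C, 7231 and 4723 bp for RLTR15, 7012 and 4104 bp for RMER16C and 3509 and 3825 bp for IAPLTR1_Mm (E6.5 and E7.5). The RMER16C element near Tspan10 (chr11:120441114-120441291) held 68.1%, 51.7%, 70% and 82.6% in E6.5 ExE and 33.5%, 34.9%, 32.2% and 38.6% in E7.5 ExE, and epiblast held 85.9% and 42.6%. The RLTR15 element near Cd300a (chr11:114877876-114878228) held 62.5%, 49%, 58.8% and 54.6% and then 32.8%, 36.9%, 41.2% and 45.1%, with epiblast at 58.9% and 54.5%. The RLTR10C element at chr3:96320144-96320576 held 82.0%, 69.9%, 86.5% and 75.2% and then 53.3%, 54.1%, 63% and 60.6%, with epiblast at 90.5% and 66.2%. The IAPLTR1_Mm element at chr13:100593870-100594225 held 65.7%, 65.2%, 73.3% and 64.2% and then 26.5%, 44.1%, 34.1% and 55.3%, with epiblast at 88.6% at E6.5 and no value at E7.5. These 4 were chosen after their values were seen.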
